A study of Mus musculus with 38 samples.

Results

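Fragments of tRNA-Gly, the transfer RNAs that deliver glycine to the ribosome, were followed across 38 sperm small RNA libraries from mice. The members were the 4 rows whose name begins with tRNA-Gly in the listing of tRNA reads that match the genome, namely tRNA-Gly-GCC, tRNA-Gly-CCC, tRNA-Gly-TCC and tRNA-Gly-ACC, where the last 3 letters are the anticodon. They are 4 of the 54 isoacceptors (tRNAs sharing 1 anticodon) with a read in any mouse.

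Mature tRNAs can be cut in or near the anticodon loop, which leaves a 5′ and a 3′ piece. Such pieces, mainly from the 5′ side, make up much of the small RNA of mature sperm, and many are acquired while sperm pass through the epididymis, where vesicles shed by the epithelium carry them. The 5′ fragment of tRNA-Gly-GCC is among the most abundant of them and is known for work in mouse embryos and embryonic stem cells that tied it to the repression of genes linked to the endogenous retroelement MERVL.

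All animals were inbred C57BL6/J males, killed after a fast at 11 to 13 weeks of age, from litters of 5 to 10 pups. Dams ate a control diet (CT, 20% protein) or a protein-restricted diet (PR, 8% protein) during pregnancy and lactation, and sons were placed on 1 of the 2 diets at weaning (day 21). The first 2 letters of a group name the diet of the dam and the last 2 the diet of the son: CTCT (10 mice), CTPR (9), PRCT (9) and PRPR (10). Littermates were split between diets, so that 8 CT litters held a CTCT and a CTPR mouse and 9 PR litters a PRCT and a PRPR mouse. Groups follow the sample labels. For the brothers 47I1 (CTCT) and 47I2 (CTPR) a separate mouse list has the diets the other way round, so that grouping was also run. Sperm were those that swam out of cut epididymides.

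Reads that matched the genome numbered 4465281 to 7612603 per mouse, and reads assigned to the 54 isoacceptors 175955 to 1873087. Levels are given as reads per 1000000 reads that match the genome (RPM). With 2804 or more reads in every mouse for tRNA-Gly-GCC and tRNA-Gly-CCC, differences between mice far exceed counting error. Listed class totals departed from the reads that match the genome by 614630 reads in the CTCT mouse 35F2, 789615 in the CTCT mouse 47I1, −117839 in the PRCT mouse 31A3 and −1241147 in the PRPR mouse 08G5, and by at most 52 elsewhere. Sperm markers were present: the summed level of mir-34b, mir-34c and mir-449a, miRNAs of late germ cells, ranged from 17.3 to 848.1 RPM in CTCT, 76.4 to 1425 in CTPR, 136 to 713.1 in PRCT and 110.2 to 1349 in PRPR. The miRNAs of epithelium (mir-200a, mir-200b, mir-200c, mir-141, mir-429) summed to 38.9 to 1294, 34.2 to 2227, 132.0 to 1043 and 96.9 to 1298 RPM in the same order. Those of muscle and stroma (mir-143, mir-145a, mir-1a, mir-133a) summed to 63.5 to 3276, 71.6 to 8575, 386 to 3443 and 250 to 3548 RPM, with a mean over all mice of 1792 RPM against 504 RPM for the germ cell list. Each of these 2 sums was mostly 1 miRNA, mir-143 with a mean of 1565 RPM and mir-34c with 468 RPM. The means of mir-145a, mir-1a and mir-133a were 132, 80.0 and 14.1 RPM. Blood miRNAs (mir-451a, mir-144, mir-486a) summed to between 1.61 and 47.1 RPM, with a mean of 8.68 RPM. Most of it was mir-451a, with a mean of 7.60 RPM and a highest level of 44.4 RPM in the CTPR mouse 47I2. The median of mir-144 was 0.

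Across the 38 mice the summed level of tRNA-Gly followed the germ cell list (Spearman's rho 0.80), the piRNA class (0.80) and the whole miRNA class (0.70). The rho was 0.64 for the muscle and stroma list, 0.59 for the epithelium list and 0.32 for the blood list. The summed level ran opposite to the snoRNA class (−0.65). These are descriptions over mice that share their read total as denominator. In bulk sperm RNA fewer cells with a fragment cannot be told apart from less of it per cell.

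RefSeq annotates 28 tRNA-Gly genes in the mouse (GRCm38.p6, whose coordinates are those of mm10): 14 for GCC, 6 for CCC, 7 for TCC and 1 for ACC. The genes are 71 to 74 bases long, so they differ little in length. The reads counted are fragments, however, and the RPM of a name also depends on which name a read receives. A run of 9 of them, 4 GCC and 5 TCC genes, lies at chr1:171037997-171102827, and 3 CCC genes and 1 TCC gene lie at chr3:96351167-96501080. The only ACC gene, n-TGacc1, lies at chr11:48823728-48823801. Reads were listed by isoacceptor and not by gene, so the part of each copy cannot be given.

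tRNA-Gly-GCC was the most abundant of the 54 isoacceptors. There tRNA-Gly-GCC averaged 65877 ± 37225 RPM (SD, n = 38), or 51.1% ± 9.02 of all tRNA reads. It was higher than tRNA-Glu-CTC, the next in rank, at 21612 RPM. tRNA-Gly-CCC, the other major glycine name, ranked 4 with 6774 ± 6237 RPM. The remaining members were minor: tRNA-Gly-TCC ranked 19 with 142 ± 50.5 RPM, and tRNA-Gly-ACC ranked 42 with 23.2 ± 29.7 RPM. tRNA-Gly-ACC was listed at 0 in 1 CTCT mouse, 07C3. Summed, tRNA-Gly took between 33.7% (07C3) and 68.6% (the PRPR mouse 40H3) of the tRNA reads of a mouse.

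The names did not match between listings. How a read that fits several names receives 1 of them is not given in the sources used here, so each name is uncertain. The pipeline lists all tRNA reads by isoacceptor, and lists again, as a subset, the reads that begin at the 5′ end. In the first listing tRNA-Gly-CCC held 1.18% to 29.3% of the reads named GCC or CCC. In the 5′ listing of the same mice it held 76.8% to 93.1%. In 38 of 38 mice more 5′ reads were named tRNA-Gly-CCC than the first listing gave that name in all, and the same was true of tRNA-Gly-ACC in 38 of 38. The 5′ reads of the 4 names together made up 83.7% to 94.6% of the summed tRNA-Gly reads, so in every mouse the sum of the 5′ names stayed below that of the first listing. For the other 50 isoacceptors the 5′ share was 66.5% to 89.5%. Values for the sum are therefore given beside those for each name, a choice made after seeing the data.

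**Figure D1:**
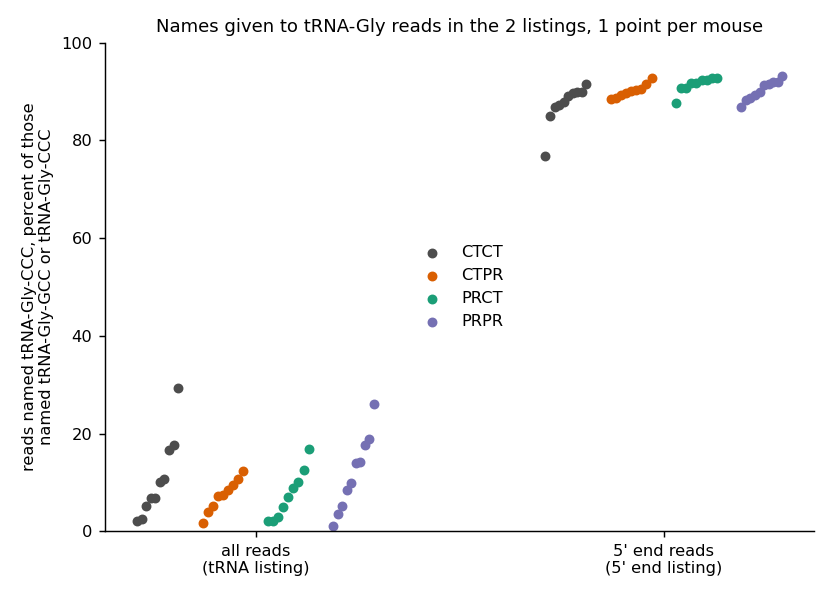
Reads named tRNA-Gly-CCC as a percent of those named tRNA-Gly-GCC or tRNA-Gly-CCC (y axis), in the listing of all tRNA reads (left) and of 5′ end reads (right). Each point is 1 of 38 mice, coloured by diet group. All mice lie at or below 29.3% in the first listing and at or above 76.8% in the second.

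The first question was whether a low-protein diet after weaning alone (CTPR) went with another level than a control diet throughout (CTCT). tRNA-Gly-GCC ranged from 11161 to 92195 RPM in CTCT (median 45720) and from 19145 to 160935 RPM in CTPR (median 89810). In CTPR, 8 of 9 mice lay above the CTCT median and 4 above the highest CTCT mouse, but the groups overlapped, and the lowest CTPR mouse, 09H5, was a littermate of the lowest CTCT mouse, 09H7. The log2 fold change was 0.94 ± 0.40 (SE) with P = 0.0217 and an adjusted P of 0.112 (edgeR's quasi-likelihood test, Benjamini-Hochberg over 54 isoacceptors), which did not pass 0.05.

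The sum of the 4 names gave nearly the same. It ranged from 11863 to 99203 RPM in CTCT and from 20281 to 168007 RPM in CTPR, with medians of 51132 and 97313. The log2 fold change was 0.90 ± 0.38 (P = 0.0231, adjusted P = 0.104, edgeR). Leaving out 1 library changed the call: without the CTCT mouse 45L3, the highest of its group, the adjusted P was 0.0464 for the sum and 0.0485 for tRNA-Gly-GCC, and without the CTPR mouse 09H5 it was 0.0455 for the sum. The gain was not limited to tRNA-Gly: without 45L3, 11 of 54 isoacceptors had an adjusted P under 0.05 (13 of 51 with tRNA-Gly as a sum), and without 09H5, 0 of 54 (11 of 51 with the sum). In the other direction, the unadjusted P (edgeR) was under 0.05 in 18 of 19 such fits for tRNA-Gly-GCC and for the sum. Its highest value was 0.0539 for tRNA-Gly-GCC and 0.0554 for the sum. The highest adjusted P was 0.222 and 0.202.

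The other 3 names did not reach the adjusted threshold either. tRNA-Gly-CCC ran from 601 to 9193 RPM in CTCT and from 1039 to 12784 in CTPR (log2 fold change 0.43 ± 0.56, P = 0.453, edgeR). tRNA-Gly-TCC ran from 82.1 to 214.8 and from 84.3 to 264 RPM (0.33 ± 0.25, P = 0.201). tRNA-Gly-ACC ran from 0 to 30.7 and from 0.87 to 134.7 RPM (1.50 ± 0.73, P = 0.0457, adjusted P = 0.145, edgeR). Its highest 4 CTPR mice exceeded every CTCT mouse, while 2 CTPR mice stood at or under 3 RPM, and with 47I1 and 47I2 exchanged its log2 fold change was 0.44 (P = 0.564).

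Of the 4 members, 2 had an unadjusted P under 0.05 in CTPR against CTCT, both higher, and none passed after adjustment. Among all 54 isoacceptors 18 did so (33.3%), all of them higher, again with 0 after adjustment by edgeR and 0 by DESeq2 with the same library sizes, which gave 18 unadjusted. The median log2 fold change was 0.68 over the 4 members and 0.70 over all 54, and 51 of the 54 lay above 0. Of 9 other tRNAs known for abundant sperm fragments (tRNA-Glu-CTC, tRNA-Glu-TTC, tRNA-Lys-CTT, tRNA-Lys-TTT, tRNA-His-GTG, tRNA-Val-CAC, tRNA-Val-AAC, tRNA-Val-TAC and tRNA-Asp-GTC), all 9 lay above 0, with a median of 0.47, and 3 had an unadjusted P under 0.05. When reads of all tRNAs served as library size in place of genome-matching reads, the change was 0.25 for tRNA-Gly-GCC (P = 0.0831, edgeR). The change turned negative for tRNA-Gly-CCC (−0.35) and tRNA-Gly-TCC (−0.51). tRNA-Gly reads are themselves a large part of that library size, which moves with them. Of the other RNAs compared between the same groups, none passed (7 measures, adjusted P = 0.997 for each by exact permutation test over 28 tests). Their differences in mean log2(RPM + 1), CTPR minus CTCT, were 1.09 for the germ cell list (exact permutation test, P = 0.163), 0.62 for epithelium, 0.79 for muscle and stroma, 0.32 for blood, 0.75 for both the piRNA and the miRNA class, and −0.73 for the snoRNA class (exact permutation test, P = 0.0531). The part of other cells and RNA classes in the tRNA-Gly differences was not tested.

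**Figure D2:**
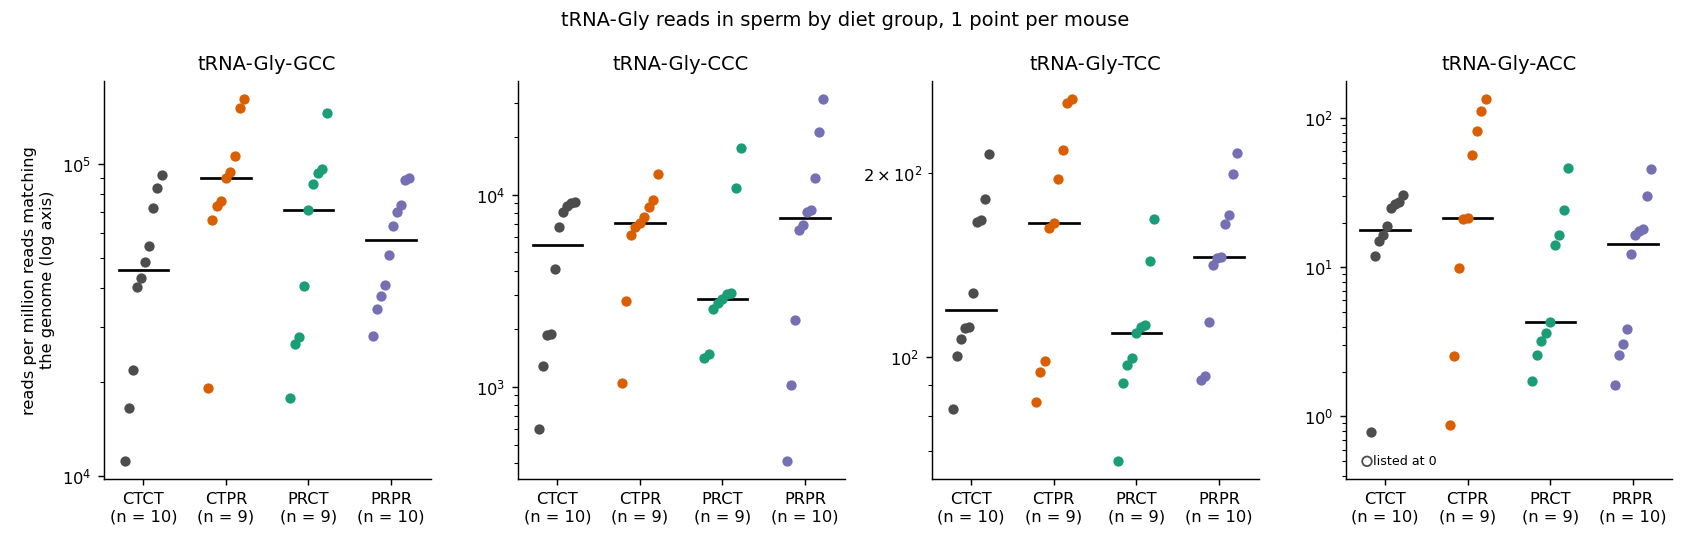
Level of the 4 tRNA-Gly names in RPM (y axes, log scale) by diet group, with 1 point per mouse and the group median as a bar. The open circle marks the 1 mouse listed at 0, and all groups overlap, with the median of tRNA-Gly-GCC highest in CTPR at 89810 RPM.

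The share of tRNA reads set the same comparison against total tRNA in place of genome-matching reads. tRNA-Gly is itself a large part of that total, so the total moves with it. A share therefore does not remove the change in total tRNA. Reads of all tRNAs other than tRNA-Gly had medians of 37370 RPM in CTCT and 56201 RPM in CTPR. Summed tRNA-Gly took 33.7% to 64.7% of tRNA reads in CTCT (median 58.0%) and 43.0% to 68.2% in CTPR (median 63.7%). The means were 53.4% ± 10.5 and 60.9% ± 9.34 (SD), a difference of 7.58 percentage points that was smaller than either SD (two-sided exact permutation test, P = 0.116, adjusted P = 0.397 over 25 share tests). For tRNA-Gly-GCC alone the means were 47.4% and 56.3% (exact permutation test, P = 0.0689, adjusted P = 0.345). tRNA-Gly-TCC took a lower mean share in CTPR (0.118%) than in CTCT (0.168%, exact permutation test, P = 0.127, adjusted P = 0.397). Its mean level was higher in CTPR, at 171.6 RPM against 136.9 RPM in CTCT. More tRNA-Gly-GCC in the total lowers the share of a minor name even where its level does not fall. The lower share therefore does not show less tRNA-Gly-TCC.

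By fragment end, the 5′ reads made up 83.7% to 94.6% of the summed tRNA-Gly reads of each mouse. Their sum could therefore hardly change otherwise than the whole. Summed 5′ reads of tRNA-Gly changed by 0.87 ± 0.38 on the log2 scale in CTPR against CTCT (P = 0.0284, adjusted P = 0.200, edgeR over the 185 tRNA rows as listed, with this sum in place of its members). The 5′ row named tRNA-Gly-CCC, the larger of the 5′ rows, went from a median of 40557 RPM in CTCT to 77962 RPM in CTPR (0.90 ± 0.39, P = 0.0259, adjusted P = 0.204). The 5′ row named tRNA-Gly-GCC went from 5123 to 8261 RPM (0.61 ± 0.33, P = 0.0746). The rows as listed hold each name as a whole and again by end, so the same reads can enter 2 rows. Of 15 tRNA-Gly rows, the 4 whole names among them, 3 had an unadjusted P under 0.05. Among all 185 rows, which include the 54 isoacceptors, 34 did (18.4%), and 0 rows passed after adjustment by edgeR. In the other comparisons the count of tRNA-Gly rows was 1 for PRCT against CTCT (8 of all 185, 4.32%), 0 for PRPR against CTCT (4, 2.16%), 1 for PRPR against PRCT (6, 3.24%) and 2 for the difference between dams (10, 5.41%). In each of those 3 counts above 0, one row was that of CCA-ended tRNA-Gly-GCC reads that match the genome, whose median was 0 in every group.

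**Figure D3:**
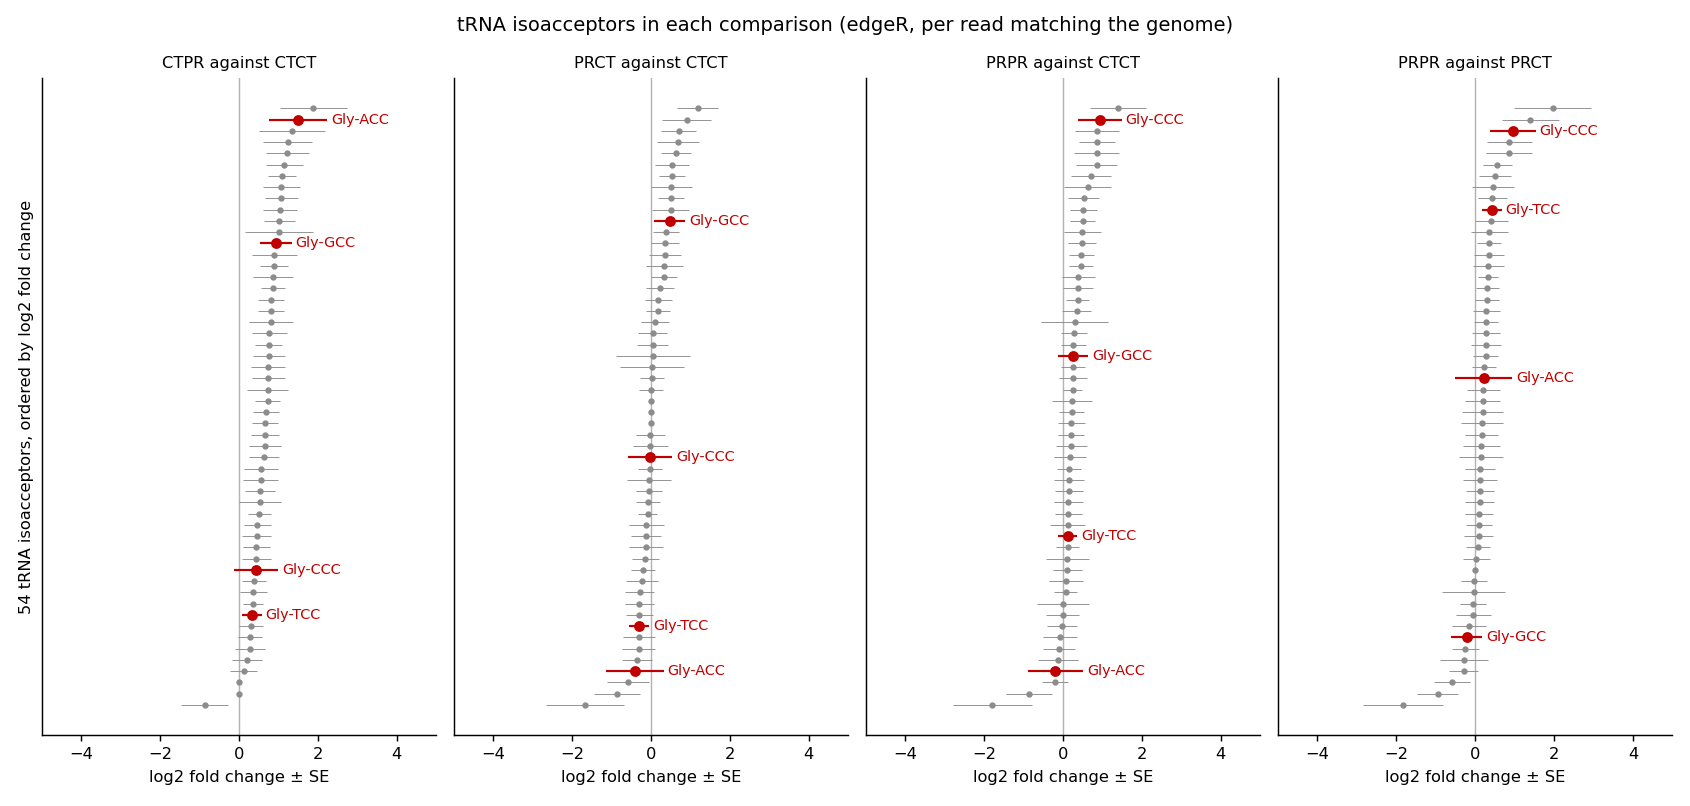
Log2 fold change of each of 54 tRNA isoacceptors (points, x axis) with its SE (bars) in the 4 comparisons between diet groups, ordered by size within each panel, with tRNA-Gly in red. In CTPR against CTCT, 51 of 54 lie above 0 and tRNA-Gly-GCC stands at 0.94, among the others and not beyond them.

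Mice whose dams alone were restricted (PRCT) differed less from CTCT, and the same CTCT mice served as the reference. tRNA-Gly-GCC ranged from 17855 to 145692 RPM in PRCT (median 71119). Its log2 fold change was 0.48 ± 0.39 (P = 0.233, edgeR), with 3 of 9 mice above the highest CTCT mouse. tRNA-Gly-CCC had a median of 2850 RPM in PRCT against 5437 in CTCT, yet a log2 fold change of the means of −0.03 (P = 0.958), since the PRCT mice 51O1 and 40H1 carried far more of it than the rest. The sum changed by 0.43 ± 0.38 (P = 0.261) and its share of tRNA reads was 56.4% ± 8.35 (exact permutation test against CTCT, P = 0.494). None of the 4 members had an unadjusted P under 0.05, and 1 of 54 isoacceptors did (1.85%).

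In mice restricted throughout (PRPR), tRNA-Gly-GCC ranged from 28178 to 89852 RPM (median 57079), the narrowest range of the 4 groups. Against CTCT the log2 fold change was 0.26 ± 0.38 (P = 0.505, edgeR) and no PRPR mouse exceeded the highest CTCT mouse. The sum ranged from 29314 to 120485 RPM (median 64864), with 2 of 10 PRPR mice above the highest CTCT mouse (0.34 ± 0.37, P = 0.368, edgeR). tRNA-Gly-CCC ranged from 409 to 31362 RPM, a 76.7-fold span set by the mice 31A6 and 40H3 (log2 fold change 0.93 ± 0.55, P = 0.100). None of the 4 members, and 0 of the 54 isoacceptors (0%), had an unadjusted P under 0.05 by edgeR.

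The post-weaning diet could also be compared within restricted dams, PRPR against PRCT. tRNA-Gly-GCC changed by −0.22 ± 0.39 (P = 0.582, edgeR) and the sum by −0.10 ± 0.38 (P = 0.803). The mean share of summed tRNA-Gly was 56.4% ± 8.35 in PRCT and 56.4% ± 8.29 in PRPR (exact permutation test, P = 1.00). tRNA-Gly-TCC changed by 0.42 (P = 0.107) and tRNA-Gly-CCC by 0.96 (P = 0.101). In this comparison 0 of 4 members and 0 of 54 isoacceptors (0%) had an unadjusted P under 0.05 by edgeR.

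Whether the post-weaning diet acted differently by the diet of the dam was tested as the difference between the 2 post-weaning contrasts. For tRNA-Gly-GCC it was 1.16 ± 0.56 on the log2 scale (P = 0.0433), with an adjusted P of 0.552 over the 54 isoacceptors, of which 3 had an unadjusted P under 0.05 (5.56%). With litter as a block it was 0.81 (P = 0.0507, edgeR), and 0 of 54 isoacceptors had an unadjusted P under 0.05. For the sum it was 0.99 ± 0.54 (P = 0.0715, adjusted P = 0.532, edgeR). For the share of summed tRNA-Gly it was 7.58 percentage points (permutation test, P = 0.217, adjusted P = 0.426). That share test ignored litter, although brothers' shares were close (correlation 0.83 in CT and 0.99 in PR litters), so spread between litters entered it. Between brothers the mean share difference was 4.92 points in CT litters and −0.17 in PR litters. Whether these 2 differ was not tested with litters kept. No difference by dam passed the adjusted threshold.

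Littermates gave a comparison within the litter. In CT litters, tRNA-Gly-GCC was higher in the CTPR brother in 7 of 8 litters, with log2 ratios from −0.48 (litter 45L) to 1.90 (35F) and a mean of 0.75 ± 0.81 (SD). The exact sign-flip permutation test gave P = 0.0312 and an adjusted P of 0.104 over 10 littermate tests. In litter 35F the levels were 40441 and 150959 RPM, in 57P 21829 and 75764 RPM, and in 49K 54716 and 105728 RPM, whereas in 45L they were 92195 and 66069 RPM. The sum behaved alike (mean 0.71, 7 of 8 litters, exact permutation test, P = 0.0312). In litter 47I, whose diets are in doubt, the log2 ratio was 0.11 for tRNA-Gly-GCC and 0.19 for the sum. Both turn negative if its 2 mice are exchanged. Over 7 alternatives the sign-flip P ran from 0.0234 to 0.148 for tRNA-Gly-GCC, under 0.05 in 3 of them. For the sum it ran from 0.0234 to 0.0938, under 0.05 in 5. With 1 CT litter left out, the sign-flip P ran from 0.0156 to 0.0625 for tRNA-Gly-GCC and likewise for the sum. It was under 0.05 in 3 of 8 such fits for each.

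In PR litters, the PRPR brother had more tRNA-Gly-GCC in 4 of 9 litters, with log2 ratios from −1.21 (59L) to 0.66 (14A) and a mean of −0.07 ± 0.62 (exact permutation test, P = 0.758). Litter 14A went from 17855 to 28178 RPM, 23F from 26448 to 37744 RPM and 08G from 27806 to 41048 RPM. Litter 59L went from 145692 to 63030 RPM. tRNA-Gly-TCC, a minor member, was higher in the PRPR brother in 8 of 9 PR litters (mean log2 ratio 0.35 ± 0.33, exact permutation test, P = 0.0156, adjusted P = 0.104).

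The share of tRNA reads taken by summed tRNA-Gly was close between brothers. In PR litters it differed by a median of 0.747 percentage points and by at most 2.40, while litter means ran from 41.8% (14A) to 68.2% (40H). Mice of different PR litters and of the 2 diets differed by a median of 8.10 points over 72 pairs. In CT litters brothers differed by a median of 3.27 points and by up to 14.5, against 8.95 points between litters over 56 pairs. The CTPR brother had the higher share in 7 of 8 CT litters (mean difference 4.92 points, exact permutation test, P = 0.0234, adjusted P = 0.234), and the PRPR brother in 6 of 9 PR litters (mean −0.17 points, exact permutation test, P = 0.707). The CT differences were uneven, from −0.13 points in 09H, 0.08 in 53M and 0.36 in 47I to 11.1 in 35F and 14.5 in 57P.

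**Figure D4:**
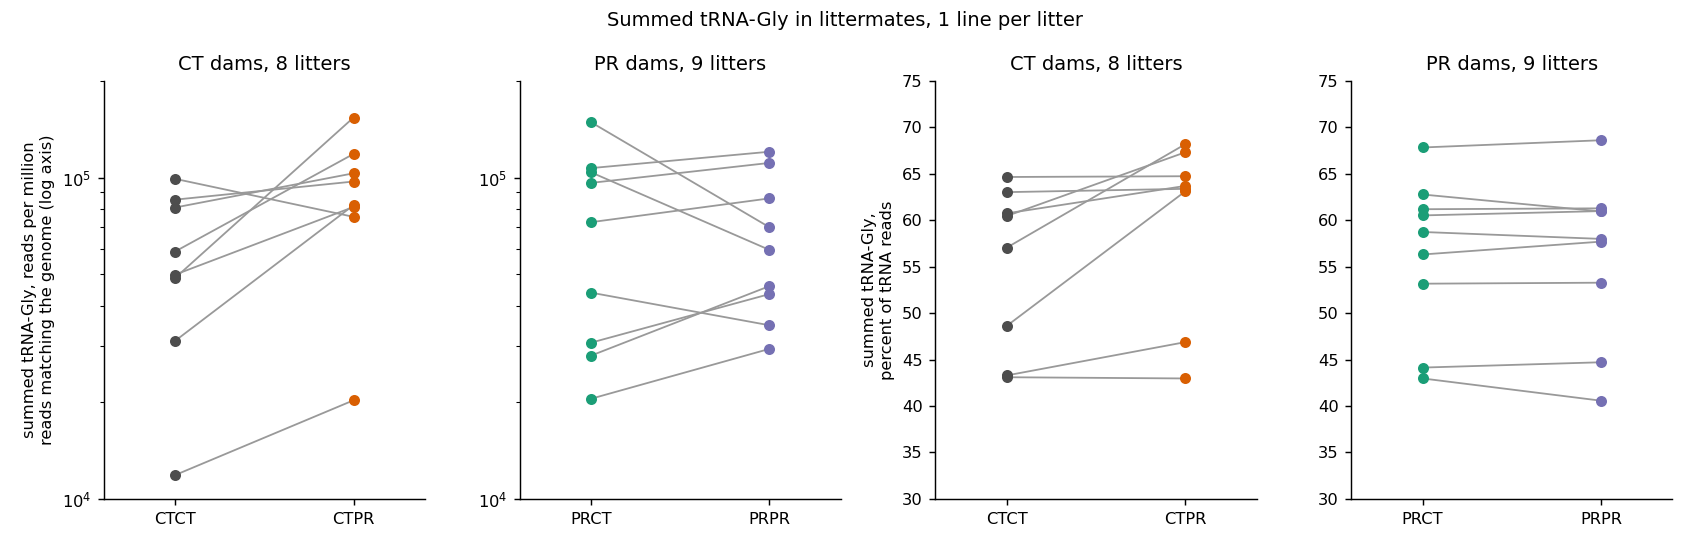
Summed tRNA-Gly in brothers, 1 line per litter, as RPM (2 left panels, log axis) and as a percent of tRNA reads (2 right panels, axis from 30 to 75%). In PR litters the share differs between brothers by at most 2.40 points, at litter means from 41.8% to 68.2%. In CT litters 7 of 8 lines rise, by 0.08 points (53M) to 14.5 points (57P).

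The correlation of brothers' deviations from their group means described the same closeness. For the share of summed tRNA-Gly it was 0.90 over 17 litters, 0.83 over the 8 CT litters and 0.99 over the 9 PR litters. For the level in RPM (log2) it was 0.76 for the sum and 0.72 for tRNA-Gly-GCC. Other measures also went with the litter: the correlation was 0.83 for the miRNA class, 0.62 for the piRNA class, 0.47 for all other tRNAs and 0.71 for the number of reads that match the genome. A shared litter and any shared handling of its samples cannot be told apart here.

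The names were less close than the sum. Within PR litters the share of tRNA-Gly-GCC differed between brothers by a median of 4.62 points and that of tRNA-Gly-CCC by 4.80. In litter 40H tRNA-Gly-GCC took 60.9% of tRNA reads in the PRCT brother and 50.6% in the PRPR brother, tRNA-Gly-CCC took 6.82% and 17.9%, and their sum with the minor names 67.8% and 68.6%. In litter 46I the shares were 56.9% and 46.9% for tRNA-Gly-GCC, 1.74% and 11.0% for tRNA-Gly-CCC, and 58.7% and 58.0% for the sum. As shares, the brothers' correlation over 17 litters was 0.53 for tRNA-Gly-GCC, 0.61 for tRNA-Gly-TCC, 0.31 for tRNA-Gly-ACC and 0.04 for tRNA-Gly-CCC, against 0.90 for the sum.

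The split of names in the 5′ listing passed the adjusted threshold in 1 comparison. tRNA-Gly-CCC held a mean of 87.4% of the 5′ reads named GCC or CCC in CTCT and more in every other group. It held 90.2% in CTPR (exact permutation test against CTCT, P = 0.0408) and 90.3% in PRPR (permutation test, P = 0.0375), with an adjusted P of 0.163 for each. In PRCT it held 91.4% (exact permutation test, P = 0.00328, adjusted P = 0.0394 over 12 tests added after seeing the data). The call was lost when any of 13 of the 19 mice was left out, namely 07C3, 02A6, 09H7, 47I1 or 57P3 of CTCT or any PRCT mouse but 14A4 (adjusted P up to 0.100), and without 07C3 the difference fell to 2.87 points (adjusted P = 0.0602, exact permutation test). In the listing of all tRNA reads the same share had means of 10.8% in CTCT and 7.50% in PRCT, a difference of the opposite sign (exact permutation test, P = 0.332).

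Among the 43 other isoacceptors with a read in every mouse, the levels (log2 RPM) that followed tRNA-Gly-GCC most closely over 38 mice were those of tRNA-Met-CAT (Spearman's rho 0.91), tRNA-Trp-CCA (0.89) and tRNA-Thr-AGT (0.88). The least close was tRNA-SeC-TCA, which reads UGA codons as selenocysteine, at 0.22, and the median was 0.74. Levels share a denominator and the total of tRNA. As shares of tRNA reads, the rho of tRNA-Met-CAT was 0.12 and that of tRNA-Thr-AGT 0.72, with a median of −0.21 over the 43. A larger share of tRNA-Gly-GCC leaves less of the total for the others, which by itself lowers these values.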

How the data were processed

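Small RNA from sperm of 38 mice was sequenced as single-end reads. Using SPORTS 1.0, the authors assigned reads to mm10 and then to databases of small RNAs, and the deposited values are raw read counts per class and class member for each mouse. Database versions are not given in the sources used here. Members and lists were chosen with earlier results of these data known.

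Counts of 54 isoacceptors were tested with edgeR 4.0.16 (R 4.3.3, glmQLFit and glmQLFTest, reads that match the genome as library size, 4 groups in 1 fit, no filter beyond 1 read), the study's test. DESeq2 1.42.0 was an alternative. Shares were tested by two-sided permutation, exact where 1 of the 2 groups had fewer than 10 mice and with 100000 draws for PRPR against CTCT and for the difference between dams, and littermates by exact sign flips (Python 3.11.15, numpy 2.4.6, scipy 1.17.1). Adjusted P values are Benjamini-Hochberg. On simulated counts, edgeR in CTPR against CTCT recovered 94% of 10 isoacceptors of 54 changed by a log2 fold change of 2. The tRNA-Gly changes in that comparison were smaller (0.33 to 1.50), and recovery at those sizes was not simulated. Within groups no pair of mice was close enough to be 1 library (lowest chi-square over its degrees of freedom 143).

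Litters pair the groups, and brothers' deviations correlated at 0.72 for tRNA-Gly-GCC. Named isoacceptors were the 4 tRNA-Gly, the 9 other sperm tRNAs, and the 3 most and 1 least like tRNA-Gly-GCC. One run left out 07C3, 35F2, 31A3 and 08G5 for class totals that do not add up. In the files this was true of 47I1 and not of 07C3, so leaving out 35F2, 47I1, 31A3 and 08G5 was added after seeing the data. No sequence is printed, as the tables used here hold none for these tRNAs.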

Additional observations from a re-analysis of the deposited data

Results flagged for a closer look

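Values that stood apart from the rest of their group were the tRNA-Gly-ACC level of the PRCT mouse 59L1 (46.6 RPM, next 24.3), the tRNA-Gly-TCC share of the CTCT mouse 09H7 (0.365% of tRNA reads, next 0.203%), and the share of tRNA-Gly-CCC among 5′ reads named GCC or CCC in the CTCT mouse 07C3 (76.8%, next 85.0%) and the PRCT mouse 14A4 (87.7%, next 90.8%). That is 4 of 52 groups of values examined with Dixon's test, of which chance marks about 1 in 20.

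The post-weaning contrast differed by dam before adjustment for the tRNA-Gly-GCC level (1.16 on the log2 scale, or 0.81 with P = 0.0507 by edgeR with litter as a block), for the tRNA-Gly-GCC share (11.8 percentage points, permutation test, P = 0.0460, adjusted P = 0.345) and for the tRNA-Gly-TCC share (−0.0736 percentage points, permutation test, P = 0.0443, adjusted P = 0.345). None passed after adjustment. The tRNA-Gly-GCC and tRNA-Gly-TCC shares have the same total as denominator, so their differences are not independent.

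CCA-ended tRNA reads listed as not matching the genome were outside the comparisons above, whereas those listed as matching it were among the rows tested by end. The former carried tRNA-Gly names in 38 of 38 mice, with 40870 reads in all: 30203 named tRNA-Gly-ACC, 4900 tRNA-Gly-GCC, 4655 tRNA-Gly-CCC and 1112 tRNA-Gly-TCC. tRNA-Gly-ACC, the rarest name among reads that match the genome, was thus the most frequent here, with a median of 48.6 per 1000000 reads of any kind in CTCT and 128.3 in CTPR, a difference that was not tested.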

How the results depend on the processing

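Over alternatives that kept all or most mice, 525 of 554 tRNA-Gly values kept their direction and side of the threshold, 26 reversed and 3 lost their call. With 1 mouse or litter left out, 1262 of 1312 did. Almost none of these values passed the adjusted threshold at the outset, so few could lose a call. A smaller size alone did not count as a change. The cause of a change was not tested. Unadjusted calls in CTPR against CTCT ranged from 2 to 22 of the isoacceptors and adjusted calls from 0 to 3, the 3 under DESeq2 with its own size factors. With 1 mouse left out the ranges were 11 (without 56I1 or 57P1) to 26 (without 47I1) of 54, and 0 to 11 (without 45L3).

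With litter as a replicate block, the CTPR change was 0.75 for tRNA-Gly-GCC (edgeR P = 0.0336, adjusted P = 0.109) and 0.67 for tRNA-Gly-CCC. The block changed no adjusted call, gave 21 unadjusted calls against 18 in CTPR against CTCT, and gave 0 against 3 in the difference between dams, where the tRNA-Gly-GCC value became 0.81 (edgeR P = 0.0507).

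In CTPR against CTCT, tRNA-Gly-GCC stayed above 0 over 15 alternatives other than leaving out 1 mouse, but ranged from 0.18 to 1.07 (log2). Its unadjusted P (edgeR or DESeq2) ran from 0.0124 to 0.362 and was under 0.05 in 11 of them. Its adjusted P ran from 0.0770 to 0.872. Log2 changes in CTPR against CTCT with tRNA reads as library size, TMM and DESeq2's own size factors, in that order, were −0.35, −0.23 and −0.33 for tRNA-Gly-CCC and −0.51, −0.57 and −0.57 for tRNA-Gly-TCC. In PRPR against CTCT they were −0.34, −0.32 and −0.27 for tRNA-Gly-TCC. With tRNA reads as library size, littermate ratios in CT litters were −0.42 for tRNA-Gly-TCC and −0.25 for tRNA-Gly-ACC, and −0.0064 in PR litters for the sum. tRNA-Gly rows as listed (whole names and ends) with an unadjusted P under 0.05 then numbered 1 for CTPR and 4 for PRCT.

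With 47I1 and 47I2 exchanged, that count was 0 for PRCT, the tRNA-Gly-ACC share difference −0.000807 points in CTPR and −0.00361 between dams, and its littermate ratio −0.20. With reads that do not match the genome added, tRNA-Gly-ACC changed by 0.25 in PRPR against CTCT. In PR litters the sum differed by −5667 RPM, or by −0.037 (log2) per all reads.

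Without 07C3, 35F2, 31A3 and 08G5, tRNA-Gly-CCC changed by 0.026 in PRCT, the share of the sum by 1.29 points in PRPR against PRCT, and the sum by −0.0046 between PR littermates. Without 35F2, 47I1, 31A3 and 08G5, chosen after seeing the data, the last 2 values were the same, tRNA-Gly-CCC changed by 0.028 in PRCT, tRNA-Gly-ACC by 0.19 in PRPR against CTCT, and tRNA-Gly-TCC by 0.021 between dams. tRNA-Gly-GCC in CTPR was then 1.05 (edgeR P = 0.0216, adjusted P = 0.0891), and the PRCT difference in the 5′ name share 4.47 points (exact permutation test, adjusted P = 0.0821).

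With 1 mouse left out, tRNA-Gly-GCC ranged from 0.80 to 1.09 in CTPR and from −0.35 to 0.0086 in PRPR against PRCT (above 0 without 59L1), tRNA-Gly-CCC from −0.56 to 0.10 in PRCT, tRNA-Gly-TCC from −0.19 to 0.0045 between dams, and tRNA-Gly-ACC from −0.15 to 0.78 and the sum from −0.23 to 0.11 in PRPR against PRCT. The tRNA-Gly-GCC share ranged from −0.168 to 3.32 points in PRPR against CTCT and the summed share from −1.68 to 1.76 in PRPR against PRCT. With 1 litter left out, PR ratios ranged from −0.16 to 0.077 for tRNA-Gly-GCC and from −0.073 to 0.15 for the sum, and CT ratios from −0.011 to 0.92 for tRNA-Gly-ACC. tRNA-Gly-ACC, with 0 to 810 reads per mouse, is limited most by depth.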
